A study of Saccharomyces cerevisiae with 6 samples.

Results

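Transcript levels of 10 yeast genes for the synthesis of leucine, isoleucine and valine were compared between the nab2-1 mutant and the wild type. The genes are LEU1, LEU4, LEU9, ILV2, ILV3, ILV5, BAT1, BAT2 and OAC1, with LEU3, the gene of the transcription factor that controls much of the pathway. They were chosen by name, with earlier results of these data known, and the probe set that the platform annotation maps to each gene was taken. All 10 were measured, each by 1 probe set, among 5449 Saccharomyces cerevisiae genes tested. The series has 6 Affymetrix expression arrays of total RNA, 3 from each strain, and cells were in exponential growth in rich medium (YPD) at the time of collection. The wild type is W303-1A. In the mutant, a W303-1A derivative, HIS3 replaces the chromosomal NAB2 gene, and the nab2-1 allele is carried on a centromeric plasmid with LEU2 as its marker. W303-1A is known to carry inactive alleles of leu2, his3, ade2, trp1 and ura3, so the LEU2 plasmid and the HIS3 insertion each also bring a biosynthesis gene into the mutant. The marker genes and the nab2-1 allele cannot be told apart as sources of any difference below. Whether the 3 samples of a strain were grown as separate cultures is not stated, so each p-value reflects only how far these samples vary, and that variation may be technical.

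Leucine and valine are built from pyruvate, and isoleucine from threonine and pyruvate, by a set of enzymes that is largely shared and lies mostly in mitochondria. Ilv2 (acetolactate synthase), Ilv5 (reductoisomerase) and Ilv3 (dihydroxyacid dehydratase) carry out the shared steps. The leucine branch begins with Leu4 or Leu9, the isopropylmalate synthases, and goes on with Leu1 and Leu2 in the cytosol. Bat1 in mitochondria and Bat2 in the cytosol add or remove the amino group. Leu3 binds the promoters of several of these genes, activating them when the leucine intermediate isopropylmalate is present and repressing them when it is not. Gcn4, the factor of general amino acid control, also activates many of them. Nab2, an essential nuclear protein, binds poly(A) tails and takes part in mRNA export.

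A difference is the mean log2 signal of nab2-1 less that of the wild type, given ± SE with n = 3 arrays per strain, and adjusted p-values come from limma fitted to all 5449 genes with Benjamini-Hochberg adjustment and a threshold of 0.05. Array medians over the tested genes lay between 10.27 and 10.30 on the log2 scale. Over all probe sets on the arrays, the medians were higher in nab2-1 (from 7.09 to 7.14) than in the wild type (from 6.81 to 6.88). The arrays were thus level for the tested genes but not for all probe sets. What part this shift has in the rises of dim genes below was not tested. The RNA of NAB2 had log2 signals of 13.84, 13.60 and 13.70 in nab2-1 and 12.43, 12.36 and 12.29 in the wild type. The sources used here do not place its probes against the nab2-1 mutation, so NAB2 signal is no check of the labels. HIS3, the insertion marker, had 11.69, 11.84 and 11.82 in nab2-1 and 12.20, 12.13 and 12.18 in the wild type, so its signal was lower in the strain labelled as carrying the inserted copy (-0.39 ± 0.06, adjusted p = 0.00059; with arrays scaled to spiked control RNAs -0.11, adjusted p = 0.538). W303-1A is known as a MATa strain, but all 4 MATalpha-specific genes had bright signals in both strains, with wild type means of 13.91 for MF(ALPHA)1, 12.26 for MF(ALPHA)2, 12.44 for STE3 and 13.15 for SAG1. The 7 MATa-specific genes had wild type means from 6.50 (ASG7) to 9.08 (STE2) and all rose in nab2-1, from 0.52 (ASG7) to 1.98 (MFA1). Of the MATalpha-specific genes 3 rose as well, MF(ALPHA)1 by 0.22, MF(ALPHA)2 by 0.48 and STE3 by 0.42, while SAG1 differed by -0.18. Relative to chromosome medians, 3 of these 4 genes and 0 of the 7 MATa-specific genes lay below. Mating-type markers thus go against the named strain in both groups, and their part in the results below was not tested. The level marked by probe sets of the other yeast on the array (95th percentile) was 4.27. A smaller share of cells with a given RNA and less of that RNA per cell cannot be told apart in such samples.

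Of the 10 genes, 9 fell in nab2-1 and LEU3 rose. LEU1 fell to 23.9% of its wild type signal, OAC1 to 35.7% and BAT1 to 36.9%, while BAT2 fell only to 89.0%. Over all tested genes 37.2% were called lower and 30.2% higher by the same rule. At least 2-fold falls were found for 3 of the 10 genes, against 3.96% of all genes. The median difference was -0.66 over the 10 genes and -0.05 over all tested genes. Either direction was called for 67.4%. For the 9 genes that fell, every nab2-1 value lay under every wild type value, which held for 41.1% of all tested genes; the reverse, seen for LEU3, held for 32.8%. When the arrays were scaled to 36 probe sets of spiked control RNAs, 5 of the 10 genes were lower and 1 higher, as described with the reference levels below. Of all 5449 genes, 622 (11.4%) were lower and 2133 higher with this scaling.

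**Figure D1:**
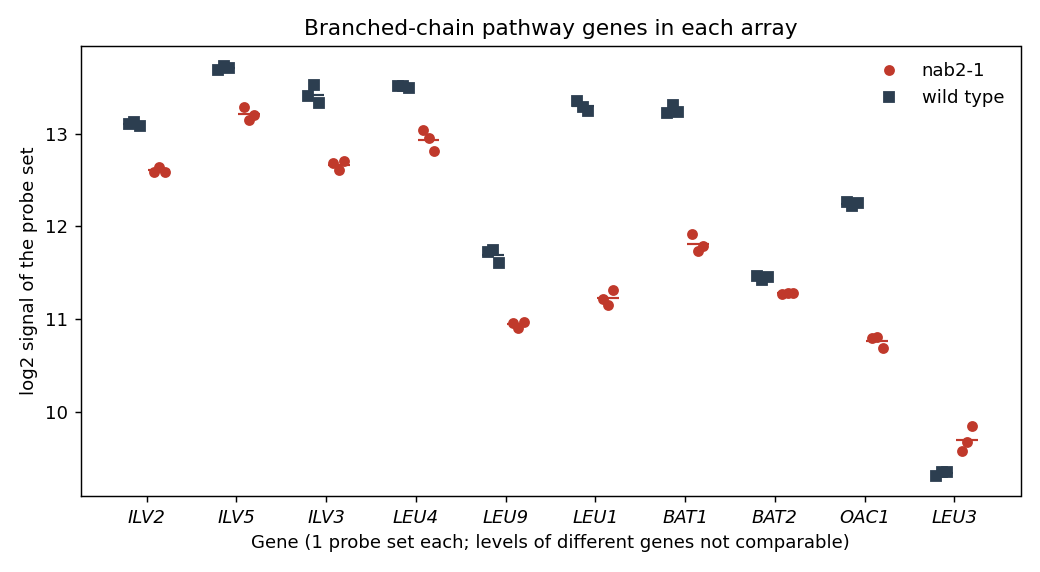
Log2 signal of the 10 genes in each of the 6 arrays, with circles for nab2-1, squares for the wild type and short lines for group means. The nab2-1 values lie under all wild type values for 9 genes and above them for LEU3; the gap between the groups runs from 0.14 for BAT2 to 1.93 for LEU1.

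The shared steps fell moderately. ILV2, the catalytic subunit of acetolactate synthase, had log2 signals of 12.59, 12.64 and 12.59 in nab2-1 and 13.10, 13.13 and 13.08 in the wild type. It fell by 0.50 ± 0.04, to 70.8% of the wild type (adjusted p = 4.67e-05), and values within a strain lay far closer together than the strains did. ILV5, whose product is also known as a protein of mitochondrial DNA nucleoids, had 13.29, 13.15 and 13.20 in nab2-1 against 13.68, 13.73 and 13.70. Its fall of 0.49 ± 0.05 (adjusted p = 0.000117) was 1.40-fold. ILV3, an iron-sulphur enzyme, had 12.68, 12.60 and 12.71 in nab2-1 and 13.40, 13.52 and 13.33 in the wild type. ILV3 fell by 0.76 ± 0.06 (adjusted p = 3.32e-05), more than ILV2 and ILV5, and its 95% interval ended at -0.61, where those of ILV2 and ILV5 began (-0.60 and -0.61).

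Within the leucine branch the isomerase gene fell most. LEU1, which encodes the cytosolic iron-sulphur enzyme isopropylmalate isomerase, had log2 signals of 11.22, 11.15 and 11.31 in nab2-1 and 13.35, 13.29 and 13.24 in the wild type. All 3 mutant arrays were about equally low, and the groups were separated by 1.93. The fall of 2.07 ± 0.06 was 4.19-fold (adjusted p = 7.06e-07) and placed LEU1 at rank 24 from the lowest of 5449 genes. LEU4, the main isopropylmalate synthase gene, had 13.04, 12.96 and 12.82 in nab2-1 and 13.51, 13.52 and 13.49 in the wild type. It fell by 0.57 ± 0.06 (adjusted p = 0.000142), with a wider spread in the mutant (SD 0.11) than in the wild type (SD 0.012). LEU9, the paralog of LEU4, had 10.96, 10.91 and 10.97 in nab2-1 against 11.73, 11.74 and 11.60 and fell by 0.74 ± 0.05 (adjusted p = 1.85e-05).

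Both branched-chain transaminase genes fell, by very different amounts. BAT1, for the mitochondrial enzyme, had log2 signals of 11.92, 11.74 and 11.79 in nab2-1 and 13.22, 13.31 and 13.23 in the wild type. Its fall was 1.44 ± 0.06, or 2.71-fold (adjusted p = 2.14e-06). BAT2, for the cytosolic enzyme, had 11.27, 11.28 and 11.28 in nab2-1 and 11.46, 11.42 and 11.45 in the wild type. The strains did not overlap, but the fall of BAT2 was only 0.17 ± 0.04 (adjusted p = 0.0095). BAT2 lies near the middle of all genes, at rank 2037 from the lowest. Relative to the median of its chromosome it differed by -0.05 (adjusted p = 0.387), and its direction turned with scaling to the spiked controls, to 0.11 (adjusted p = 0.563).

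Paralogs and subunits were compared within each array. The log2 signal of BAT1 minus that of BAT2 was 0.54 ± 0.10 (SD, n = 3) in nab2-1 and 1.81 ± 0.07 in the wild type, so the change of BAT1 exceeded that of BAT2 by 1.27, larger than either spread. With 3 arrays against 3, the two-sided exact permutation test cannot go below p = 0.1, and it gave p = 0.1 here (0.15 adjusted over the 3 pairs compared). For LEU4 minus LEU9 the strains differed by 0.17, with SDs of 0.12 and 0.07 (exact permutation p = 0.2, adjusted 0.2). For ILV2 minus ILV6, the catalytic and regulatory subunits of 1 enzyme, they differed by -0.10, with SDs of 0.06 and 0.02 (exact permutation p = 0.1, adjusted 0.15). This test therefore cannot show a difference past the threshold for any of the 3 pairs.

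OAC1, a carrier of the inner mitochondrial membrane that transports oxaloacetate and also isopropylmalate, fell although its chromosome was raised. Its log2 signals were 10.79, 10.81 and 10.68 in nab2-1 and 12.26, 12.22 and 12.26 in the wild type. The fall of 1.49 ± 0.05 was 2.80-fold (adjusted p = 1.01e-06). OAC1 lies on chromosome XI, whose genes had a median difference of 0.77, and its 10 nearest tested genes had a median of 0.75. Against the chromosome median OAC1 was at -2.25, below LEU1 at -1.96 by the same measure. The chromosomes of the other 9 genes had medians between -0.14 and -0.08.

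LEU3 was the only one of the 10 genes to rise. The log2 signal of this regulator gene was 9.58, 9.68 and 9.84 in nab2-1 and 9.31, 9.35 and 9.36 in the wild type. Mutant values were all higher but more spread (SD 0.13 against 0.026). LEU3 rose by 0.36 ± 0.07, or 1.28-fold (adjusted p = 0.00283), and the rise lay between 0.29 and 0.42 when each array was left out in turn. ILV5, which fell, lies on the same chromosome, XII, whose median was -0.08. The 10 tested genes nearest to ILV5 had a median of -0.42 and those nearest to LEU3 a median of -0.08. What part position has in either change was not tested.

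The 10 genes fell into steps by the size of their change as deposited. LEU1 stood alone, since its 95% interval ended at -1.93 and that of OAC1 began at -1.61. OAC1 and BAT1 had overlapping intervals and formed the next step. ILV3, LEU9, LEU4, ILV2 and ILV5 followed between -0.76 and -0.49, each interval overlapping that of its neighbour. BAT2 and LEU3 each lay apart from those before them. The order depended on the reference level. Relative to chromosome medians OAC1 was at -2.25, below LEU1 at -1.96. Against its 10 nearest genes ILV5 was at -0.07. The 3 mutant arrays gave much the same picture: the mean of the 10 genes, set against their wild type means, was -0.77, -0.81 and -0.78 in nab2-1 replicates 1, 2 and 3 and between -0.03 and 0.02 in the wild type arrays. By comparison, the median of all genes on this scale was -0.05 to -0.04 in the mutant arrays.

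**Figure D2:**
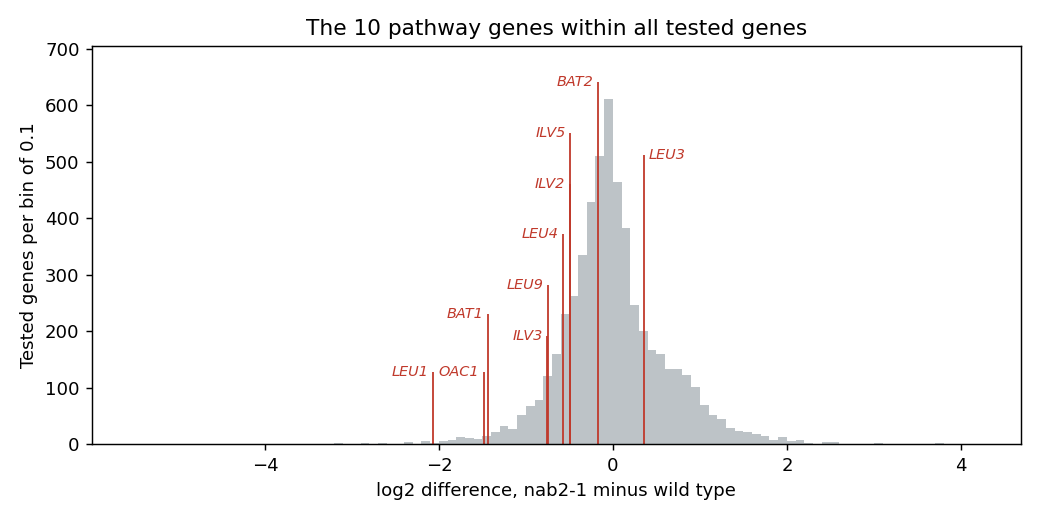
Histogram of the log2 difference (nab2-1 minus wild type) over 5449 tested genes in bins of 0.1, with a line at each of the 10 genes; line heights only separate the names. LEU1, OAC1 and BAT1 lie in the lower tail at ranks 24, 72 and 80 from the lowest, and BAT2 and LEU3 lie within the bulk at ranks 2037 and 4240.

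The other genes of the pathway behaved less uniformly. Of ILV1, ILV6 and LEU2, 1 fell and 0 rose, beside 37.2% lower and 30.2% higher over all genes, and their median was -0.11. ILV6, the regulatory subunit of acetolactate synthase, had 12.96, 13.12 and 13.07 in nab2-1 and 13.47, 13.47 and 13.41 in the wild type, a fall of 0.40 ± 0.06 (adjusted p = 0.000484) and a difference of -0.13, not past the threshold, with the spiked controls. ILV1, threonine deaminase, which feeds isoleucine synthesis, overlapped between strains and differed by -0.11 ± 0.06 (adjusted p = 0.116). LEU2, the enzyme gene after LEU1, had log2 signals of 11.51, 11.92 and 11.66 in nab2-1 and 11.56, 11.49 and 11.42 in the wild type. Replicate 1 of the mutant lay within the wild type range and the other two above it, for a difference of 0.21 ± 0.10 (adjusted p = 0.114). Without that array LEU2 was called higher, at 0.30 (adjusted p = 0.0222), as it was relative to the chromosome median, at 0.35 (adjusted p = 0.0217). RNA of the plasmid gene and of the chromosomal allele cannot be told apart by this probe set. LEU1 and LEU2 encode successive steps, with differences of -2.07 and 0.21.

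Of 3 further genes known as Leu3 targets, 2 fell, where 37.2% of all genes did. GDH1, the glutamate dehydrogenase that supplies the amino donor, had 12.06, 12.13 and 12.36 in nab2-1 and 13.32, 13.25 and 13.24 in the wild type and fell by 1.08 ± 0.08 (adjusted p = 1.97e-05). BAP2, the branched-chain amino acid permease, had 11.85, 11.95 and 11.88 against 12.72, 12.62 and 12.59, a fall of 0.75 ± 0.05 (adjusted p = 1.71e-05). LEU2, the third, is described above, and the median of these genes was -0.75.

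Genes for taking up and sensing external amino acids fell as well. Of 11 genes, among them BAP2 from above, 9 fell and 1 rose, and the median was -0.54. Over all genes 37.2% were lower and 30.2% higher. GAP1, the general amino acid permease on chromosome XI, had 9.33, 9.29 and 9.45 in nab2-1 and 11.28, 11.31 and 11.43 in the wild type and fell by 1.98 ± 0.06 (adjusted p = 9.42e-07). Relative to the median of that raised chromosome, 0.77, GAP1 was at -2.75. AGP1, a broad-range permease, fell by 1.90 ± 0.06, TAT1 by 1.12 ± 0.04, GNP1 by 0.72 ± 0.07 and BAP3 by 0.53 ± 0.05. So did genes of the plasma membrane amino acid sensor, SSY1 by 0.44 ± 0.07 and SSY5 by 0.54 ± 0.09, whereas PTR3 differed by -0.12 ± 0.13 (adjusted p = 0.435). The sensor's transcription factors moved apart: STP1 fell by 0.35 ± 0.09 (adjusted p = 0.0107, and 0.052 relative to its chromosome median) and STP2 rose by 0.47 ± 0.05 (adjusted p = 0.000156). After scaling to the spiked controls, 5 of the 11 were lower, where 11.4% of all genes were, and the median was -0.27.

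**Figure D3:**
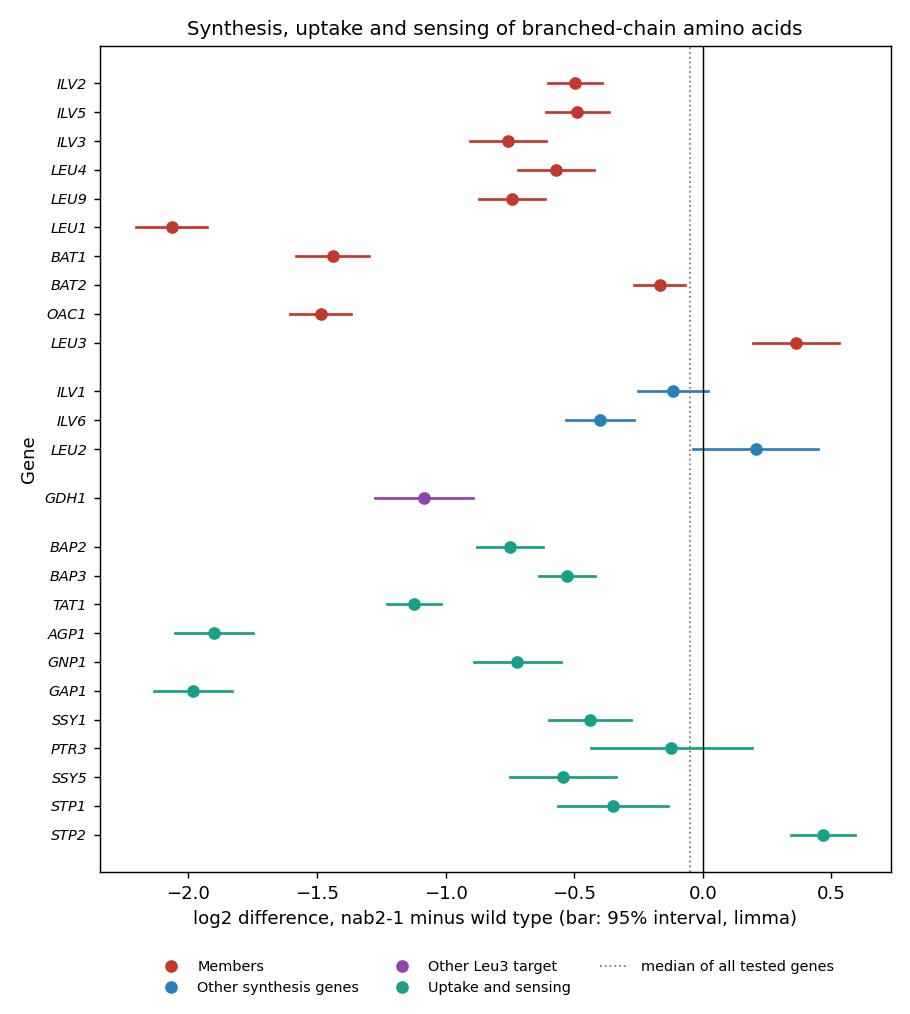
Log2 difference between nab2-1 and the wild type for the 10 genes and for related genes of synthesis, uptake and sensing, with 95% intervals from limma (n = 3 arrays per strain). LEU1 at -2.07, GAP1 at -1.98 and AGP1 at -1.90 lie farthest below the dotted line, the median of all tested genes at -0.05.

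Genes that use the keto acids of the pathway showed no common direction, with 4 of 8 lower, 2 higher and a median of -0.15. Over all genes 37.2% were lower and 30.2% higher. All 3 listed genes of pantothenate synthesis, which uses the valine precursor, fell: PAN5 by 0.54 ± 0.04, PAN6 by 0.33 ± 0.05 and ECM31 by 0.33 ± 0.07. With the spiked controls they were at -0.26, -0.06 and -0.06, none past the threshold. The decarboxylase gene ARO10, which acts in the breakdown of amino acids to fusel alcohols, rose by 1.47 ± 0.14 (adjusted p = 7.47e-05), and PDC6 rose by 0.40 ± 0.08. PDC5 fell by 0.18 ± 0.06 (adjusted p = 0.024), a call lost without nab2-1 replicate 2 or 3 or wild type replicate 1 or 3 (adjusted p from 0.059 to 0.079) and turned to 0.10 with the spiked controls. PDC1 differed by -0.03 ± 0.04 and THI3 by -0.13 ± 0.06. Scaled to the spiked controls, 0 of the 8 genes were lower, where 11.4% of all genes were, and the median was 0.12.

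Of 5 regulator genes of general amino acid control, 2 rose and 1 fell, with a median of 0.11. Over all genes 30.2% were higher and 37.2% lower. GCN4, the factor itself, had 14.10, 14.04 and 14.05 in nab2-1 and 13.91, 13.92 and 13.95 in the wild type. Its rise of 0.14 ± 0.04 (adjusted p = 0.026) was small, and the call was lost when 1 of 4 arrays was left out (nab2-1 replicates 1 and 3, wild type replicates 1 and 2; adjusted p from 0.0511 to 0.0848) and with the replicate block (adjusted p = 0.0645). GCN4 is known to be controlled mainly at translation, which RNA levels do not show. GCN3 rose by 0.58 ± 0.05 on the raised chromosome XI, but relative to the median of that chromosome it was called lower, at -0.19 (adjusted p = 0.0138). GCN20 fell by 0.22 ± 0.05 but was at 0.05 with the spiked controls, and GCN1 and GCN2 differed by 0.04 ± 0.06 and 0.11 ± 0.04 without passing the threshold. Under 7 alternatives GCN2 did pass, from 0.11 with array weights to 0.38 with the spiked controls.

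Of 44 measured enzyme genes for other amino acids, 31 fell and 7 rose, with a median of -0.26, beside 37.2% lower and 30.2% higher over all genes. Relative to chromosome medians, 19 were lower and 3 higher, where 1731 of all 5449 genes (31.8%) were lower and 1614 higher. ARG1 and LYS9, of arginine and lysine synthesis, fell most, by 1.03 ± 0.09 and 0.97 ± 0.05. SER3 rose by 1.05 ± 0.09 and ARO7 by 0.86 ± 0.07, the latter on chromosome XVI, where it was at 0.11 relative to the chromosome median. Scaled to the spiked controls, 4 of the 44 were lower, where 11.4% of all genes were, and the median was 0.02, a turned sign.

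Because LEU1 and ILV3 encode iron-sulphur enzymes and OAC1 a mitochondrial carrier, the genes of those functions were examined too. Of 18 genes of iron-sulphur cluster assembly, 7 rose and 4 fell, where 30.2% of all genes rose and 37.2% fell. The median was 0.06. The scaffold gene ISU2 fell by 1.52 ± 0.07 and ARH1 by 0.41 ± 0.06, while ISU1 and ISA2 rose by 0.78 ± 0.04 and 0.73 ± 0.07. Both risen genes are on chromosome XVI, whose genes had a median difference of 0.75. Against that median ISU1 was at 0.03 and ISA2 at -0.02. Relative to chromosome medians, 4 of the 18 genes were higher and 5 lower, where 1614 of all 5449 genes were higher and 31.8% lower. Among 21 other mitochondrial carriers 9 fell and 5 rose, beside the 37.2% and 30.2% of all genes. Their median was -0.13 and became 0.14 with the spiked controls. The dicarboxylate carrier gene DIC1 fell by 2.18 ± 0.10, and ODC2, for an oxodicarboxylate carrier, fell by 0.98 ± 0.07, whereas SFC1 rose by 1.22 ± 0.11 and ODC1 rose by 0.83 ± 0.05 on chromosome XVI, where it was at 0.08 relative to the median. SFC1 was dim, with a wild type mean of 5.21.

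The size of the falls depended on the level against which they were read. Scaling to the spiked control RNAs moved the median of all genes from -0.05 to 0.22, and the split of calls from 1644 higher and 2028 lower to 2133 higher and 622 lower. Between arrays of a strain, the mean signal of these controls varied with SDs of 0.19 (wild type) and 0.05 (nab2-1), and it differed by -0.27 between strains. How much control RNA went into each sample was not known. With this scaling LEU1 was at -1.79, OAC1 at -1.21, BAT1 at -1.16, ILV3 at -0.48 and LEU9 at -0.47, all still called lower. LEU4, ILV2 and ILV5 were at -0.30, -0.22 and -0.21 (adjusted p = 0.0847, 0.202 and 0.226 by limma), so those calls were lost, and LEU3 was at 0.64. Relative to the median of all genes, which such scaling does not alter, LEU4 was at -0.52, ILV2 at -0.45, ILV5 at -0.44, BAT2 at -0.12 and LEU3 at 0.41.

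Each gene was also read against its surroundings on the chromosome, where OAC1 moved farthest, to -2.24, and ILV5 and BAT2 lost their calls. The 10 tested genes nearest to ILV5 had a median difference of -0.42, and against them ILV5 was at -0.07 (adjusted p = 0.293). ILV3 had neighbours with the same median of -0.42 and was at -0.34 against them (adjusted p = 0.00253). The neighbours of BAT1 had a median of 0.18, and BAT1 was at -1.62 against them. For BAT2 the value was -0.08 (adjusted p = 0.116). LEU1, OAC1, BAT1, LEU9, LEU4, ILV2, ILV3 and LEU3 kept their direction and call in this comparison, which was added after the data were seen.

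**Figure D4:**
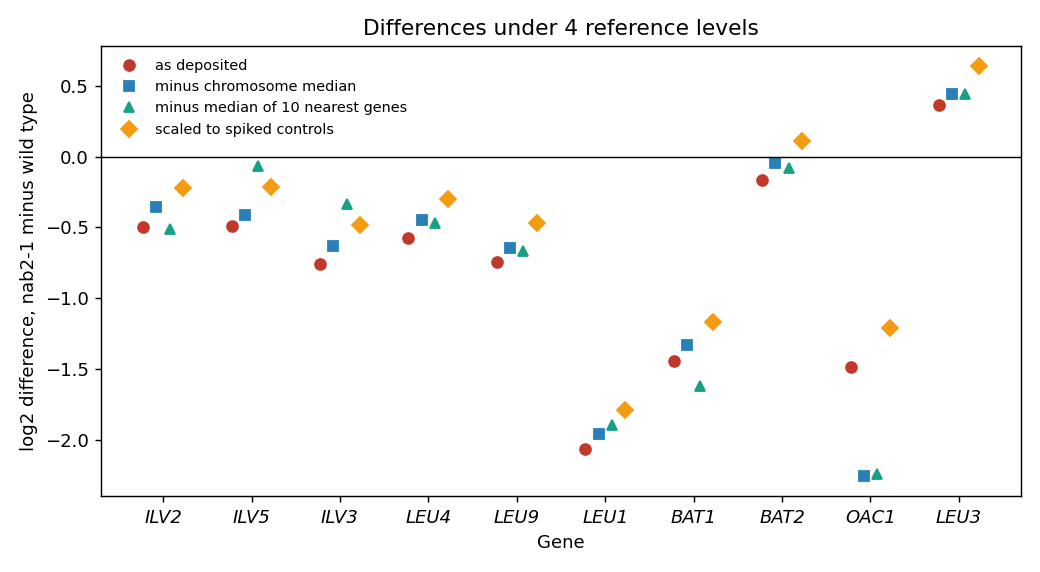
Log2 difference of the 10 genes as deposited, minus the median of the chromosome, minus the median of the 10 nearest tested genes, and after scaling to the spiked controls. LEU1, BAT1 and OAC1 stay under -1.1 throughout, LEU3 stays above 0, ILV5 nears 0 against its neighbours and BAT2 crosses 0 with the spiked controls.

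Outside the 10 genes, the profiles most like that of LEU1 were looked for over the 6 arrays, as the root-mean-square difference between gene-centred log2 values. The nearest 5 were GAP1 (0.087), MET13 (0.10), MUP1 (0.11), TMN2 (0.12) and INO1 (0.13). MET13 encodes methylenetetrahydrofolate reductase, MUP1 the methionine permease and INO1 inositol phosphate synthase. Their differences were -1.98, -2.11, -1.99, -2.10 and -2.20 in that order. With only 2 strains, such likeness rests almost wholly on the size of the difference between them. The values compared were as deposited, and relative to chromosome medians GAP1 was at -2.75 and LEU1 at -1.96.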

How the data were processed

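The deposited values are log2 signals per probe set, with 1 array per sample. GCOS, RMA and limma are the tools named, per the submitters' processing notes, with no role, order or version given. The values were used as deposited by the authors. Of 10928 probe sets, 5498 had 1 Saccharomyces cerevisiae gene in the platform annotation, with current symbols taken from RefSeq's table of S288C genes. The probe set with the highest mean was kept, which left 5449 genes. For the test, lmFit and eBayes of limma 3.58.1 (R 4.3.3) were run two-sided, with 1 estimate of the spread for both strains, and the code was first tested on simulated data. The number of arrays limits the precision, and the median SE of a difference was 0.06. Pairs of genes were compared with an exact permutation test over arrays. The members and lists were chosen with earlier results of these data known. Every gene of the 5 shorter lists could be named, and of longer lists the 2 largest rises and falls past the threshold. The lists were written from general knowledge. Alternatives were other array scalings, chromosome medians, array weights, variance estimates, a replicate block, a filter on dim probe sets, a threshold of 0.01 and leaving out each array. Each of the 10 genes had 1 probe set, so no other probe set could be tried. Figures were drawn with matplotlib 3.10.9. No sequence is shown, as none was used here.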

Additional observations from a re-analysis of the deposited data

How the results depend on the processing

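Under 17 alternatives, 163 of 170 values of the 10 genes kept their direction and their side of the threshold; the exceptions are those of LEU4, ILV2, ILV5 and BAT2 given above, with BAT2 at 0.11 with spiked controls. The cause was not tested. Of 690 values of 41 related genes, 636 kept direction and call and 7 turned: PDC5 (0.0995) and GCN20 (0.0545) with spiked controls, GCN3 (-0.19) and ISA2 (-0.0204) relative to chromosome medians, and PDC5 (0.0549), GCN3 (-0.331) and ISU1 (-0.16) against the nearest genes. With each array left out, all 10 genes kept their calls, and BAT2 had the highest adjusted p, 0.0396 by limma. Deviations of same-numbered samples of the strains had correlations of -0.19, 0.19 and -0.14. With 3 samples per strain this check cannot exclude a pairing, and the labels give only a replicate number. With the replicate block, 9 genes were still lower and 1 higher, 1582 of all genes were higher and 1932 lower, and 1 gene of general amino acid control was higher instead of 2.

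Scaled to the spiked controls, 5 of the 10 genes were lower, with a median of -0.38. Of all 5449 genes, 622 (11.4%) were lower and 2133 higher. The other synthesis genes then had 0 lower, 1 higher and a median of 0.16, uptake genes 5 lower and -0.27, further Leu3 targets 1 higher and -0.48, keto acid genes 0 lower and 0.12, general control genes 0 lower and 0.38, other amino acid enzymes 4 lower and 0.016, iron-sulphur genes 1 lower and 0.33, and carriers 3 lower and 0.14. An array's offset is shared by all its genes there, so these calls are not independent.

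Relative to chromosome medians, the median of the 10 genes was -0.54. The other synthesis genes had 1 higher and a median of 0.0033, uptake genes -0.42 and further Leu3 targets 1 higher and -0.63. Keto acid genes had a median of -0.062, general control genes 0.15 and other amino acid enzymes -0.15, with 19 lower and 3 higher. Iron-sulphur genes had 4 higher and 5 lower, and carriers 3 higher and 7 lower. Of all 5449 genes, 1614 were higher and 1731 (31.8%) lower by this measure. Against the 10 nearest genes, the medians were -0.49 for the 10 genes, 0.13 for other synthesis genes (1 higher), -0.50 for further Leu3 targets (1 higher), 0.0032 for keto acid genes (2 lower), 0.25 for general control genes, -0.10 for other amino acid enzymes (18 lower) and -0.0021 for carriers (3 higher). In that comparison 1769 of all 5449 genes were higher and 1808 (33.2%) lower.

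Without the dimmest 25% of genes, 8 uptake genes were left with a median of -0.74, 6 keto acid genes with 0 higher and -0.25 (ARO10 and PDC6, the 2 that rose, were among the dim genes), 14 iron-sulphur genes with 2 lower and 0.13, and 16 carriers with 3 higher. Of all 4087 genes left, 1237 were higher and 1612 (39.4%) lower. Cyclic loess gave medians of -0.11 for keto acid genes, 0.14 for general control, -0.22 for other amino acid enzymes and 0.091 for iron-sulphur genes, and quantile normalization -0.22 for other amino acid enzymes. At a threshold of 0.01, 1 general control and 4 iron-sulphur genes were higher, where 1379 of all 5449 genes were. With array weights, where 1766 of all 5449 genes were higher, LEU2 was counted as higher. This makes 1 in the lists of other synthesis genes and of further Leu3 targets. With arrays left out in turn, these counts of higher genes ran from 0 to 1 (without nab2-1 replicate 1) and that of general control from 1 to 2. The count over all 5449 genes ran from 1499 (without wild type replicate 1) to 1681 (without nab2-1 replicate 1). Medians ran from 0.039 to 0.084 for iron-sulphur genes, from -0.16 to -0.0147 for carriers (the latter without nab2-1 replicate 1) and from -0.27 to -0.23 for other amino acid enzymes.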
